A study of Brassica juncea with 9 samples.

Results

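In leaves of Indian mustard (Brassica juncea), 71 array probes met a rule for transcripts that were clearly expressed in every plant and were at a much lower level in plants grown with NaCl and bicarbonate than in plants grown with NaCl alone or in control solution. They were chosen from 43603 probes on measured values. Each had to be above background on all 9 arrays, its highest value in the alkaline salt plants had to lie at least 1.0 below the lowest of the 6 salt and control values on the authors' log2 scale, and its salt mean had to be within 0.5 of its control mean. On that scale a difference of 1.0 is a 2-fold difference in signal. The 71 probes stand for 68 of 40632 transcript identifiers. All values of alkaline salt against the other groups, and of salt against control, were therefore selected on, and are given below as descriptions.

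Alkaline salt plants received 50 mM NaCl in a solution buffered with 2.5 mM bicarbonate, salt plants received 50 mM NaCl without it, and control plants received neither in a slightly acidic solution. All were of genotype NDR8501, grew in aerated hydroponics in a glasshouse, and were 5 weeks old after 4 weeks of treatment. Per group, 3 plants served as biological replicates, and Cy3-labelled RNA amplified from a middle leaf, fully expanded, of each plant was hybridised to an array of its own. The study was a single experiment with this genotype at 1 time point, so nothing here speaks for other genotypes, organs or times.

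Bicarbonate holds the root solution at an alkaline pH. In such a solution iron and several other metal nutrients are less soluble, and uptake that depends on a proton gradient across the root membrane, such as that of nitrate and phosphate, is harder to sustain. Leaves of sensitive plants turn yellow under these conditions because chlorophyll synthesis needs iron. Brassica juncea carries the genomes of a pair of ancestral species, so a probe can bind the RNA of more than 1 closely related gene copy. The files pair no probe with a gene name, a description or a sequence. The 9 gene lists on photosynthesis, iron, nitrogen, sulfur, ion transport, growth and water channels could therefore not be applied, and the leaf label could not be checked against marker genes. Probes are identified below by rank, and by array identifier for A_46_P321430, which had the widest gap, and A_46_P082866, which had the highest control level.

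Between 16799 and 22063 probes were well above background on an array, and 14476 were so on all 9. Median values of these 14476 probes lay between 11.10 and 11.14 on the 9 arrays. Before scaling, the arrays differed in brightness, with 75th percentiles of intensity between 417 (salt replicate 2) and 1751 (salt replicate 3). No spot was saturated. Each of the 3 slides held 1 array of every group, and the slide number equals the replicate number.

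The 71 probes were 0.490% of the 14476 expressed probes. The same rule turned round, for probes higher in alkaline salt, was met by 181 probes, or 1.25%. Of the expressed probes, 84 had the required gap, and 13 of them were left out because salt and control differed by 0.5 or more; salt was the lower in 9 and the higher in 4. A further 105 probes met both value limits but were not above background on all 9 arrays. Of these, 56 were above background on no alkaline salt array, and 47 were above it on 1 or 2 alkaline salt arrays and on all 6 others. The set thus holds lowered transcripts that could still be measured in alkaline salt leaves, and leaves out those that were dim on any array.

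The limits did not coincide with a break in the data. The 3 probes just inside the gap limit had gaps of 1.004, 1.010 and 1.019, and the 3 just outside had gaps of 0.996, 0.993 and 0.991. The 3 members nearest to the salt limit had salt minus control differences of −0.475, −0.465 and 0.464, and the 3 nearest probes beyond it had 0.502, 0.503 and −0.509. The rule asks for a gap and not for a mean difference, so spread matters: 102 expressed probes had mean falls against both groups at least as large as the members' median smaller fall of 1.75, and only 36 of them were members. Another 56 lacked the gap and 10 failed the salt limit alone. The number of members rose whichever single array was left out, but the size of the rise depended on the plant. Fewer values then set the gap, and what each limit of the rule added to the rise was not tested. The 3 largest counts came without replicate 1 of the alkaline salt group (184), without its replicate 2 (221) and without control replicate 3 (116). With all arrays, the number was 116 at a gap of 0.9, 13 at a gap of 1.5 and 40 at a salt limit of 0.25.

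The levels showed a shift from the upper part of the expressed range towards its middle. Across the 71 probes, group means ran from 8.28 to 14.46 in alkaline salt (median 10.68), from 10.14 to 16.34 in salt (median 12.68) and from 10.29 to 16.77 in control plants (median 12.88). The medians of all expressed probes were 11.10, 11.11 and 11.12 in the same order of groups. Ranked among the expressed probes, the members had a median percentile of 40.6 in alkaline salt, 78.3 in salt and 80.8 in control leaves. In alkaline salt leaves, 12 of the 71 were above the 75th percentile of expressed probes, against 41 in salt and 45 in control leaves. Below the 25th percentile there were 19 in alkaline salt leaves and 0 in both other groups. In alkaline salt leaves 9 members (12.7%) lay below the 10th percentile, against 0 in salt and 0 in control leaves. By definition 25% and 10% of the expressed probes lie below these percentiles. The rule put every salt and control value at least 1.0 above alkaline salt values that were themselves above background. The absence of low ranks in salt and control leaves, and the direction of the shift, were thus largely set by the selection. The lowest member still had 119 expressed probes below it. Levels of different probes depend on how well each probe binds, so these ranks describe signal, not the number of RNA molecules.

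**Figure D1:**
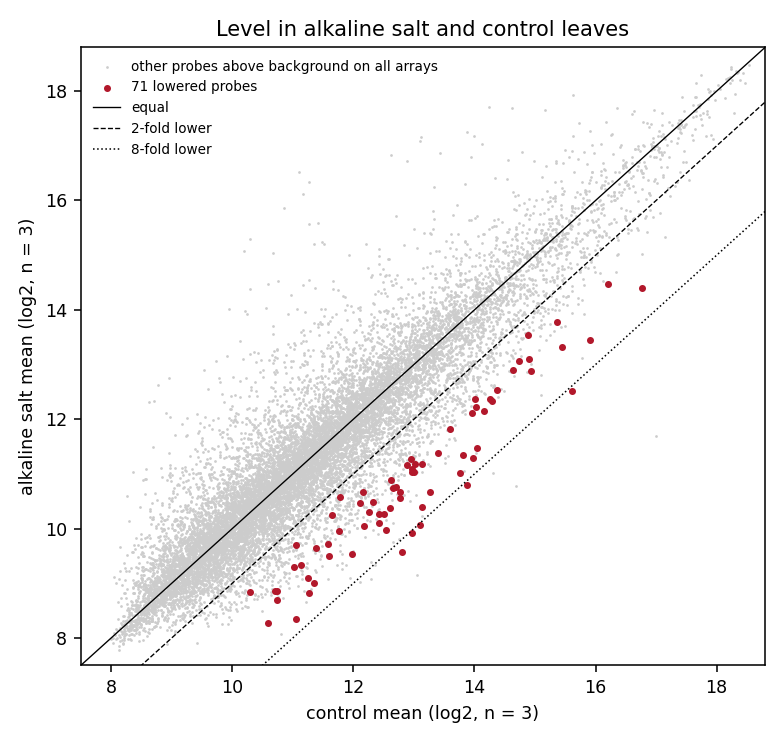
Mean log2 value of each probe above background on all 9 arrays, with control plants on the horizontal axis and alkaline salt plants on the vertical axis (n = 3 plants each). The 71 members, in red, all lie below the line of a 2-fold difference, and 5 of them lie below the line of an 8-fold difference.

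Against control plants the members' mean level in alkaline salt was 2.28- to 9.48-fold lower, with a median of 3.87-fold. Against salt plants it was 2.33- to 13.1-fold lower, with a median of 3.48-fold. The difference was from 2- to 4-fold for 38 members against control and for 45 against salt, from 4- to 8-fold for 28 and 22, and over 8-fold for 5 and 4. It was at least 4-fold against both groups for 23 members and under 4-fold against both for 35. The probes of the turned-round rule had a median log2 difference of 2.17 against control and gaps of up to 4.46, while no member had a gap over 2.05. Whether fewer cells carried these transcripts or each cell held less of them cannot be told apart in RNA of a whole leaf.

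**Figure D2:**
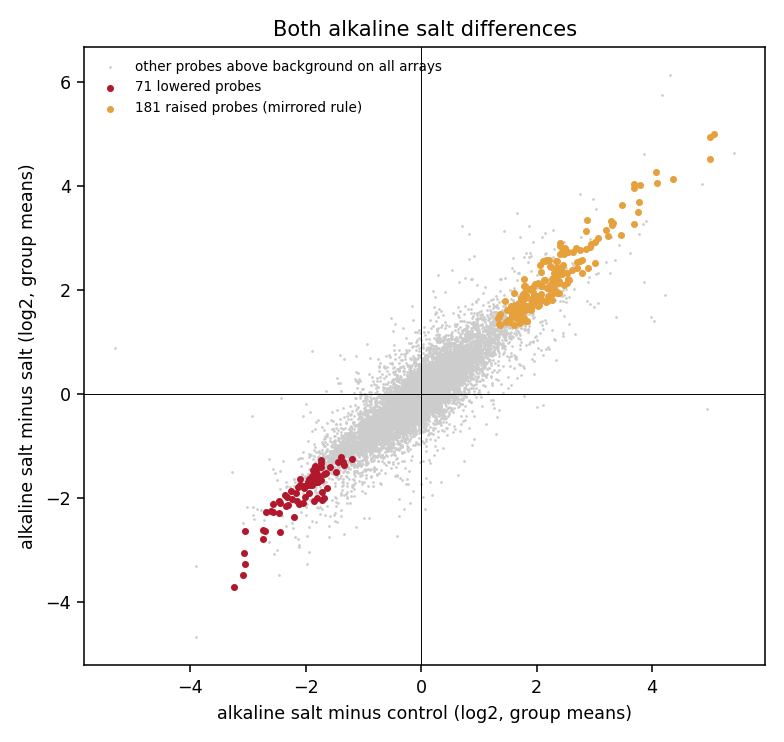
Difference of group means in log2 units, alkaline salt minus control on the horizontal axis and alkaline salt minus salt on the vertical axis, for each expressed probe. The 71 lowered probes (red) reach −3.24 and −3.71 on the axes, while the 181 raised probes (orange) reach 5.07 and 5.00. Both axes share the alkaline salt means.

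With limma, fitted to all tested probes on intensities scaled to each array's 75th percentile, 71 of 71 members were called lower in alkaline salt than in control at an adjusted p under 0.05. Over all 17798 tested probes that share was 9.86%. Against salt 71 of 71 were called lower, where the share over all tested probes was 7.24%. The rule used these contrasts, so the counts say nothing beyond the selection. The members' median log2 change was −1.97 (from −3.27 to −1.20) against control and −1.77 (from −3.67 to −1.20) against salt, beside medians of −0.02 and 0.00 over all tested probes. The median standard error was 0.26. Scaling to the array median in place of the 75th percentile gave 64 members called against control and 37 against salt.

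Salt alone left the members close to control, as the rule required. In limma 0 of 71 were called in salt against control, where 0.0337% of tested probes were called in either direction, and 1 member had an unadjusted p under 0.05. Within the allowed band the values were not centred on 0. The salt mean was below the control mean for 55 members (77.5%) and above it for 16, against 51.8% below among all expressed probes. The median difference was −0.18, with a range from −0.47 to 0.46, and in the limma fit it was −0.23, with 59 below 0. Among the 181 raised probes the salt mean was above the control mean in 63.5%. The 3 salt values all lay below the 3 control values for 3 members and above them for 1, while these arrangements held for 5.5% and 5.2% of the expressed probes. No share was tested, since the members were chosen on the same control values.

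**Figure D3:**
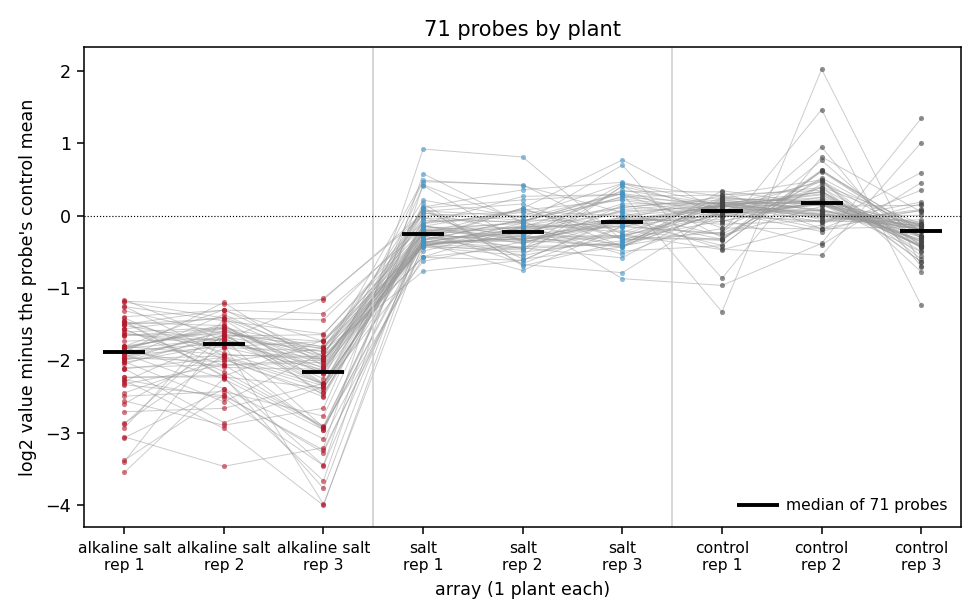
Log2 value of each of the 71 members on each array, minus that probe's mean over the control plants. Lines join the values of 1 probe and black bars mark the median of the 71. On the alkaline salt arrays no point is higher than −1, while the salt and control points spread around 0, with single control values up to 2 above their mean.

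A_46_P321430 had the widest gap of the 71, at 2.05. Its log2 values were 10.90, 10.91 and 9.37 in the alkaline salt plants, 12.99, 13.22 and 13.35 in the salt plants, and 13.14, 13.32 and 12.96 in the control plants. Salt and control values overlapped within a band of 0.40, and alkaline salt replicate 3 lay below the other plants of its group, whose range was 1.54. The group means were 10.39 ± 0.89, 13.19 ± 0.18 and 13.14 ± 0.18 (SD, n = 3 plants each), so the level in alkaline salt was 6.94-fold lower than in salt and 6.71-fold lower than in control. In the limma fit the log2 change was −2.72 (SE 0.38) against either group. The scanner intensities behind these values were 1582, 2886 and 558 in alkaline salt, 8119, 3353 and 16500 in salt, and 7793, 11971 and 11757 in control plants. The low intensity of salt replicate 2 goes with the low overall brightness of that array, and after scaling that plant's value lay between those of the other salt plants. A_46_P321430 stood at percentile 34.3 of the expressed probes in alkaline salt leaves, against 84.0 in salt and 83.6 in control leaves.

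A_46_P082866 had the highest control level of the set. Its log2 values were 14.67, 14.71 and 13.83 in alkaline salt, 16.39, 16.01 and 16.62 in salt, and 16.52, 17.17 and 16.63 in control plants. Again replicate 3 was the lowest alkaline salt plant, and salt and control overlapped. The means were 14.41 ± 0.50, 16.34 ± 0.31 and 16.77 ± 0.35 (SD, n = 3 plants each), or 3.83-fold lower in alkaline salt than in salt and 5.15-fold lower than in control. The limma log2 changes were −1.93 (SE 0.33) and −2.41 (SE 0.33). A_46_P082866 was at percentile 93.2 of the expressed probes in alkaline salt leaves, against 98.5 in salt and 99.0 in control leaves, so a transcript lowered several-fold remained among the brightest on the array.

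The member of gap rank 2 was much dimmer. It had values of 8.49, 8.15 and 8.39 in alkaline salt, 11.47, 10.68 and 10.76 in salt, and 11.18, 11.52 and 10.45 in control plants. Its alkaline salt values agreed within 0.34, and its mean there, 8.34, was at percentile 1.195 of the expressed probes. The member of gap rank 3 had values of 11.60, 10.94 and 9.87 in alkaline salt, 13.68, 13.56 and 14.32 in salt, and 14.15, 13.93 and 13.55 in control plants. Its level in alkaline salt was 8.27-fold lower than in salt and 8.43-fold lower than in control, with salt and control means within 0.03 of each other.

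The member of gap rank 4 had the largest mean differences of all, 13.1-fold lower in alkaline salt than in salt and 9.48-fold lower than in control. Its values were 9.75, 9.34 and 9.60 in alkaline salt, 13.73, 13.62 and 12.47 in salt, and 12.58, 14.28 and 11.57 in control plants. The alkaline salt plants were close together, while the control plants differed from each other by up to 2.71. The array holds 2 other probes of the same transcript. The brighter of them, which missed the set because its salt mean exceeded its control mean by 0.502, showed the same order of plants: 9.33, 8.73 and 9.18 in alkaline salt, 13.25, 13.20 and 11.94 in salt, and 11.95, 13.87 and 11.06 in control plants. The dimmer probe was above background on 3 arrays and was not tested.

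Only 4 members were at least 8-fold lower against both groups, and 3 of these had widely spread control plants, with SDs of 1.37, 0.84 and 1.78. They were the members of gap rank 4, 18 and 54, in the order of these SDs, and that of rank 3. That of rank 18, also of rank 4 by control level, had 12.06, 13.36 and 12.16 in alkaline salt, 16.19, 15.51 and 16.31 in salt, and 14.74, 16.42 and 15.66 in control plants. It was 11.1-fold lower than in salt and 8.48-fold lower than in control. The member of rank 54, chosen after its values were seen because its range over the 6 salt and control plants was the widest at 3.36, had 9.90, 10.58 and 9.31 in alkaline salt, 13.40, 12.90 and 13.28 in salt, and 11.64, 15.00 and 12.28 in control plants. Control replicate 2 was the highest control plant in this member and in those of rank 4 and 18.

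Other members differed by less but were steadier. The member of gap rank 9 had 9.96, 9.76 and 9.45 in alkaline salt, 11.69, 11.80 and 11.88 in salt, and 11.59, 11.51 and 11.65 in control plants, with SDs of 0.25, 0.10 and 0.07. It was 4.18-fold lower in alkaline salt than in salt and 3.62-fold lower than in control, and all its salt values were above all its control values. The member of gap rank 58, of rank 2 by control level, had 14.55, 14.47 and 14.37 in alkaline salt, 15.84, 15.75 and 15.61 in salt, and 16.37, 16.37 and 15.86 in control plants. Here salt lay between the other groups in every plant, and the differences were 2.42-fold against salt and 3.33-fold against control. The smallest difference against control, 2.28-fold, belonged to the member of rank 70, with 10.59, 10.55 and 10.61 in alkaline salt, 11.81, 11.70 and 12.00 in salt, and 11.86, 11.84 and 11.62 in control plants. Its alkaline salt values had an SD of 0.03, so it met the gap with a small mean difference.

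**Figure D4:**
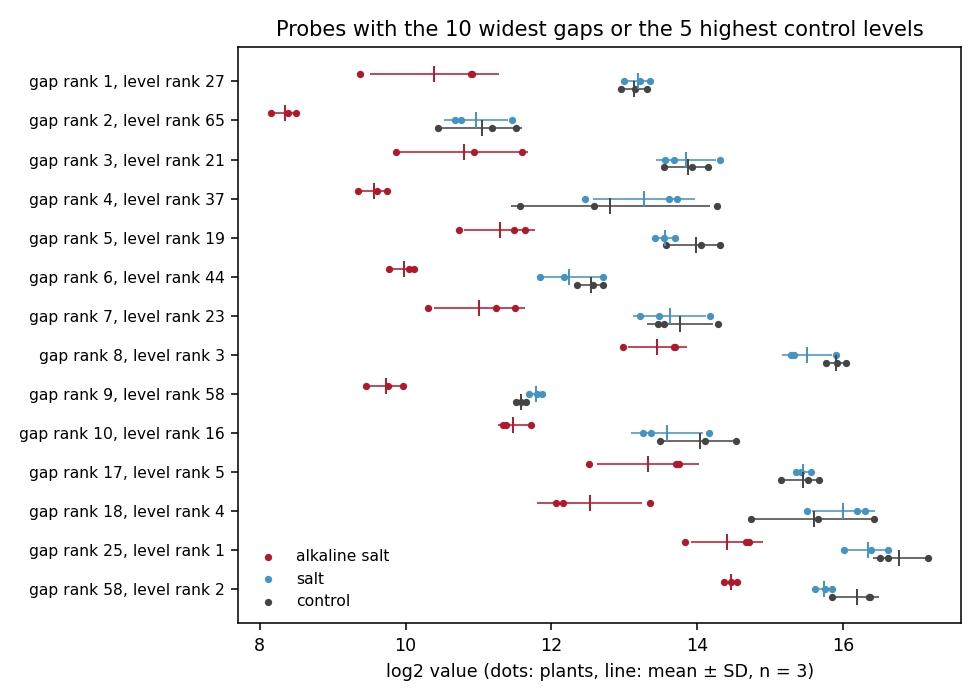
Log2 values of the members with the 10 widest gaps or the 5 highest control levels. Dots are plants, horizontal lines the mean ± SD (n = 3) and vertical ticks the mean, with alkaline salt above salt above control for each probe. Every alkaline salt dot lies left of all salt and control dots of its probe, as the rule requires, while salt and control dots overlap for most probes.

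The remaining members among the 10 widest gaps were between these. At gap rank 5 the values were 11.64, 11.49 and 10.74 in alkaline salt, 13.55, 13.43 and 13.70 in salt, and 14.05, 14.32 and 13.58 in control plants. At gap rank 6 they were 10.05, 10.11 and 9.77 in alkaline salt, 12.71, 11.85 and 12.18 in salt, and 12.57, 12.70 and 12.35 in control plants. Both were 4.82-fold lower in alkaline salt than in salt, and they were 6.45-fold and 5.93-fold lower than in control. At gap rank 8, with rank 3 by control level, they were 13.68, 13.70 and 12.99 in alkaline salt, 15.34, 15.29 and 15.90 in salt, and 16.04, 15.92 and 15.77 in control plants. At gap rank 10 they were 11.33, 11.38 and 11.72 in alkaline salt, 14.16, 13.37 and 13.25 in salt, and 14.11, 14.53 and 13.49 in control plants. These 2 were 4.16-fold and 4.34-fold lower in alkaline salt than in salt, and 5.48-fold and 5.92-fold lower than in control. At gap rank 7 the values were 11.49, 11.24 and 10.305 in alkaline salt, 13.48, 13.21 and 14.17 in salt, and 13.46, 14.28 and 13.54 in control plants, which made it 6.10-fold and 6.72-fold lower than in salt and in control. The member of rank 5 by control level, of gap rank 17, had 13.71, 13.75 and 12.52 in alkaline salt, 15.42, 15.35 and 15.57 in salt, and 15.67, 15.53 and 15.15 in control plants. Its salt and control means were almost equal, and alkaline salt was 4.34-fold lower than salt and 4.35-fold lower than control. Replicate 3 was the lowest alkaline salt plant at gap ranks 5, 6, 7, 8 and 17, and the highest at rank 10.

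Among the members, the spread between plants was larger in alkaline salt and control than in salt. The median SD of a member was 0.33 in alkaline salt, 0.18 in salt and 0.31 in control plants, beside 0.22, 0.23 and 0.29 for all expressed probes. The range of the 3 alkaline salt values had a median of 0.61 and was smaller than the gap in 65 of the 71. The range of the 6 salt and control values had a median of 0.76 and was smaller than the gap in 62. The widest alkaline salt range, 2.22, belonged to the member of gap rank 33, which was singled out after its values were seen, with 11.24, 11.49 and 9.27 in alkaline salt, 12.89, 13.13 and 12.73 in salt, and 13.26, 13.27 and 13.27 in control plants. Across the 71 members the log2 difference against control was only weakly related to the control level (Pearson r = −0.14, Spearman rho = −0.11). The difference was further below 0 in members with a wider control spread (r = −0.58 and rho = −0.45 with the control SD) and a wider alkaline salt spread (r = −0.54 and rho = −0.54 with the alkaline salt SD). These values describe probes measured on the same 9 arrays, and each SD shares its plants with the difference. The rule also ties them, since a probe with widely spread values meets the gap only with a larger mean difference. The relations with the SDs are therefore at least partly set by the selection, and whether any part is a trait of the transcripts was not tested.

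The members tended to deviate together in certain plants. Alkaline salt replicate 3 had the lowest of the 3 alkaline salt values for 46 members, replicate 1 for 16 and replicate 2 for 9, while replicate 3 was the lowest for 33.4% of all expressed probes. Member medians were 10.90, 10.94 and 10.41 in alkaline salt, 12.71, 12.59 and 12.73 in salt, and 12.83, 13.12 and 12.58 in control plants. Among control plants, replicate 3 had the lowest value for 48 members and replicate 2 the highest for 39, beside 36.1% and 29.3% of all expressed probes. Among the controls, replicate 3 thus lay nearest to the alkaline salt level and replicate 2 farthest from it. The first component of the members' deviations from their group means carried 38.7% of that variance, beside 29.5% for the first component of all expressed probes' deviations. These 2 shares come from probe sets of very different size, 1 of them chosen on the same values, and their difference was not tested. The members' first component had its largest scores at control replicate 2 (0.39) and, with the opposite sign, control replicate 3 (−0.33) and alkaline salt replicate 3 (−0.26). Alkaline salt replicate 3 had 21016 probes above background, the most of its group, and its part in these values was not tested. With intensities scaled to the 75th percentile, replicate 3 was the lowest alkaline salt plant for 47 members.

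The difference was seen on each slide. The median of alkaline salt minus control was −1.98, −1.97 and −1.97 on slides 1 to 3, and that of alkaline salt minus salt was −1.65, −1.60 and −2.19. All 71 members were lower in alkaline salt in each of these pairs, which the rule fixes. On slide 3 the member nearest to its control partner differed by −1.004 and the farthest by −4.62.

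Most members were the only probe for their transcript. Of the 71, 57 belong to transcripts with a single probe on the array, and 5 share a transcript with another member. In the transcript with 3 members, of gap rank 40, 45 and 63, the log2 differences of alkaline salt from control were −1.81, −1.80 and −1.74, and those from salt were −1.69, −1.53 and −1.32. In the transcript with 2 members, of gap rank 32 and 68, they were −2.32 and −2.23 from control, and −1.98 and −2.02 from salt. Such probes share a transcript identifier, were measured in the same plants and add no plants.

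Another 11 probes that are not members were present for 9 of the members' transcripts. Of these, 4 were too dim to be tested, 2 of them above background on no array. The 7 tested probes had all alkaline salt values below all 6 others, an arrangement found in 14.2% of expressed probes, and for 3 the gap was at least 1.0. All 7 were called lower against control by limma and 5 against salt, beside the shares of 9.86% and 7.24% over all tested probes. Their median log2 change was −1.81 against control and −1.23 against salt. These probes share transcript identifiers with members chosen on the same contrasts in the same plants, so their counts are no independent support.

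Agreement in size between the members and the other probes varied. For the transcripts of gap rank 8 and 41, the other probe had log2 differences of −2.78 and −2.57 from control, where the members had −2.46 and −2.44. For those of gap rank 14, 24, 37 and 47, the other probe had smaller differences of −1.79, −1.69, −0.97 and −1.22, where the members had −2.13, −1.83, −1.74 and −1.73. At rank 37 and 47 the other probe also missed the call against salt, with log2 differences of −0.69 (limma adjusted p = 0.0621) and −0.73 (limma adjusted p = 0.121), where the members had −1.65 and −1.41. Members were picked for large gaps and the other probes were not, and whether 2 probes of an identifier bind the same set of gene copies was not tested.

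**Figure D5:**
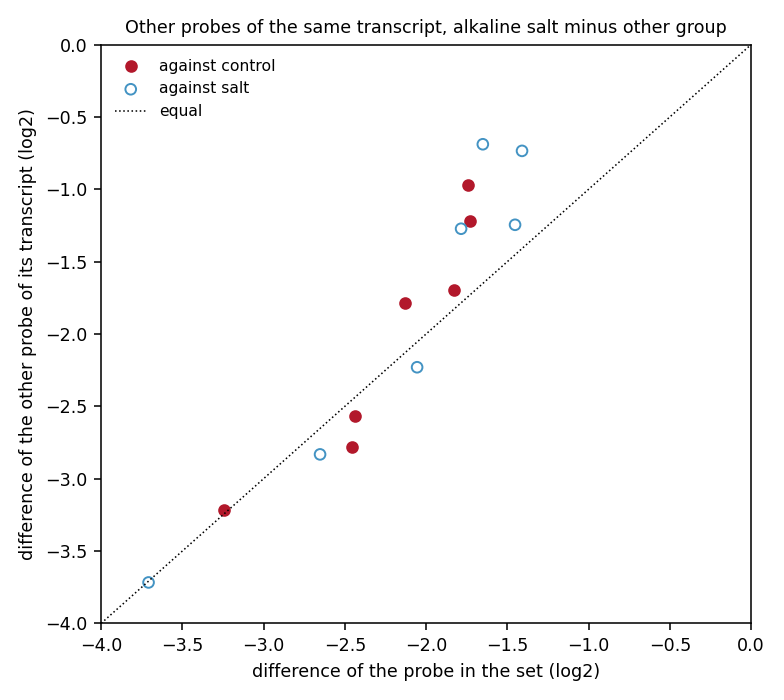
Log2 difference of the 7 other tested probes (vertical axis) against that of the member of the same transcript (horizontal axis), filled for alkaline salt minus control and open for alkaline salt minus salt. All points are below 0 on both axes, 4 transcripts lie above the dotted line of equality in both contrasts, and the transcript with the largest fall lies on it.

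The members were spread over the array surface. Their 71 spots, 1 for each probe, lay in rows 3 to 519 and columns 2 to 84, with 1 pair of spots within 2 rows and columns of each other. None carried an outlier flag on any array.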

How the data were processed

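RNA of 9 plants was hybridised to 1-colour Agilent arrays. The authors deposited scanner files with spot intensity on a linear scale, background-subtracted by Agilent Feature Extraction 10.1.1.1 and not normalised between arrays, per the file headers. Version 10.5.1.1 of that program is given in the submitters' processing notes. The scan dates in the headers precede the growing period in the labels. The authors also deposited a table of log2 values with no method stated. It matched quantile-normalised log2 intensity (median absolute difference 0.021, 99th percentile of the difference 0.0717), so its scale is inferred. The rule, the per-plant values, the folds and the ranks use this table.

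A probe counted as above background on an array when at least 0.5 of its spots carried the scanner program's flag. The fit used log2 intensity minus each array's 75th percentile, without the 71 outlier spot values and the control spots. Probes above background on all 3 arrays of a group were tested (17798) with limma 3.58.1 in R 4.3.3 on all 9 arrays, without covariates, two-sided, with Benjamini-Hochberg adjustment over all tested probes in each contrast. The p-values measure the spread between these plants, whose number limits precision: the median 95% interval of a member's log2 change reached 0.60 to either side. The fit was tested on simulated data. Figures used matplotlib 3.10.9.

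The members and all lists were chosen with earlier results of these data known. Members with the 10 widest gaps, the 5 highest control levels, the 3 values next to each limit, or a shared transcript were followed, and at most 2 identifiers printed. Gene lists were not used, as no probe has a gene name here. Alternatives covered scaling, background correction (normexp with offset 50, on median spot signals since the files hold no mean signal), filters, the limits of the rule, the replicate block and leaving out each array.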

Additional observations from a re-analysis of the deposited data

How the results depend on the processing

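No alternative changed the direction of a median difference, or of the alkaline salt log2 changes followed for 23 members. For salt against control, where none was called, 9 of the 23 had the other sign under at least 1 alternative. For the number of members, 71 as reported, normexp with quantile normalisation gave 44 (36 of them shared), no background requirement 176, a gap of 0.9 gave 116 and one of 1.5 gave 13, and a salt limit of 0.25 gave 40. Leaving out single arrays gave 74 to 221. Fewer values then set the gap, and what each limit of the rule added to the rise was not tested. The 3 counts over 1.5 times the reported one were 184, 221 and 116. They came without alkaline salt replicate 1, alkaline salt replicate 2 and control replicate 3, in that order. The 75th percentile scaling gave 68, of which 58 were shared. Normexp gave median log2 changes of −1.65 against control and −1.46 against salt. Median scaling left 37 members called lower against salt; the cause was not tested. Leaving out single arrays gave 70 to 71 calls against control and 65 to 71 against salt. Of the 23 members followed, 2 missed the threshold against control and 9 against salt under at least 1 of 18 alternatives. For arrays of equal replicate number, correlations of the deviations from group means lay from −0.143 to 0.356. They exceeded 0.1 in 2 of 9 pairs. Arrays of equal replicate number shared a slide by design. With 3 arrays a group these values cannot show how far arrays of a slide deviate together, and the main fit used no pairing. The replicate block, which is also the slide, gave 71 members called against control, 71 against salt and 0 in salt against control, with medians of −1.97, −1.77 and −0.23, and changed no call of the set. Signal over background limits the set to transcripts still measurable in alkaline salt leaves.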
